A study of Mus musculus with 10 samples.

Results

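The sites described here are the GLIS3 binding sites at 5 thyroid transcription factor genes, Pax8, Nkx2-1, Foxe1, Hhex and Glis3, in the thyroid gland of Glis3-EGFP mice. A site was taken when its midpoint lay in a window of mm9 that holds the gene and about 50 kb on each side, and this gave 42 of the 18513 sites in the list. The windows held 6 sites at Pax8, 6 at Nkx2-1, 6 at Foxe1, 8 at Hhex and 16 at Glis3. The rule took sites by position only and used no measured value. The 5 genes themselves were chosen with earlier results of these data known. The study lists each of them as bound by GLIS3 in mouse thyroid within 5 kb of the transcription start. That reach is shorter than these windows, and its methods describe another call of sites.

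ChIP-Seq was done on 1 thyroid library of Glis3-EGFP mice, whose GLIS3 is made as a fusion with EGFP, and on 1 library of WT mice as the negative control. Both groups were C57BL/6 and had been on a low-iodine diet (LID), which raises TSH, for 2 weeks. The methods of the study give an age of 8 to 10 weeks for Glis3-EGFP mice used in ChIP-Seq. They take the GLIS3 ChIP-Seq data from an earlier series, and do not say that this age holds for the library used here. Chromatin was captured on agarose with a GFP-binding peptide, so the WT library, which holds no GFP, gives the background of the capture. With 1 library per group there is no spread between animals and no test between groups, and the sources used here do not say how many glands went into a library. The glands were whole tissue, and the list of sites holds no expression values, so the tissue was not checked against marker genes. Depth was 4516562 selected tags of 5336607 in all for Glis3-EGFP, and the total given for the WT control was 5171171 tags.

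GLIS3 is a zinc finger transcription factor that binds G-rich DNA, and loss of its function causes congenital hypothyroidism. PAX8, a paired-box factor, NKX2-1 and HHEX, both homeobox factors, and FOXE1, a forkhead factor, are needed to form the thyroid. PAX8, NKX2-1 and FOXE1 also drive genes of thyroid hormone synthesis in follicular cells. Factors of this kind are known to act on each other's genes, so binding of GLIS3 near these 5 genes, its own among them, was the question for this set.

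The letters under the sites themselves were not read, since the genome used here is GRCm38 and the sites are in mm9. The promoters below, from RefSeq on GRCm38, are shown as the start regions of the genes that the sites surround. They are printed 5′ to 3′ along the gene and end before the first transcript start in RefSeq or GENCODE M21, with matches to the motif letters in capitals, and 4 of the 5 genes had an entry.
Pax8, chr2:24475600-24475849, minus strand: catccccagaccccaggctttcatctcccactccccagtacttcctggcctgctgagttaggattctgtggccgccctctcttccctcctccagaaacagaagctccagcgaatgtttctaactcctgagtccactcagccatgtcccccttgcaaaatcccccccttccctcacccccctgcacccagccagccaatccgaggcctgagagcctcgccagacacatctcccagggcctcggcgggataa
Nkx2-1, chr12:56536909-56537158, minus strand: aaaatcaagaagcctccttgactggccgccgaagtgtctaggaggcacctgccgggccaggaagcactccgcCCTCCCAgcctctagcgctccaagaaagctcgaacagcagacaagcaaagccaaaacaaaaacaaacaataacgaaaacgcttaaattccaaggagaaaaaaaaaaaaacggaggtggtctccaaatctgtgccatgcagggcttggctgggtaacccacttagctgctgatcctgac
Hhex, chr19:37434591-37434809, plus strand: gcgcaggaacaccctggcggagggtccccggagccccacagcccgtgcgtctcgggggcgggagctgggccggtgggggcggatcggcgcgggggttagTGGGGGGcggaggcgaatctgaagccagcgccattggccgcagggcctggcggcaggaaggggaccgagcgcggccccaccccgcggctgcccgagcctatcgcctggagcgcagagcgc
Glis3, chr19:28680266-28680327, minus strand: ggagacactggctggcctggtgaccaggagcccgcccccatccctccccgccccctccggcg

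The letters searched, exactly and on both strands, were TGGGGGG and TGGGAGG for GLIS factors, CACTTGA and CACTCAA for NKX factors, TGTTTAC for FOX factors and GCGTGAC for PAX factors. The search covered 250 bases before and 50 after the start. The Hhex promoter held TGGGGGG on the gene's strand, beginning 151 bases before the RefSeq start, and 8.47% of all 32851 promoters of this length hold these letters. The Nkx2-1 promoter held TGGGAGG on the other strand, beginning 178 bases before the start, against 12.4% of all promoters. The Pax8 and Glis3 promoters held none of the 6 in this stretch, which says only that these letters are not there. The NKX, FOX and PAX letters, which 2.09% to 3.65% of all promoters hold, were not in any of the 4. The share of G and C in the printed stretch was 77.2% at Hhex, 60.4% at Pax8 and 50.8% at Nkx2-1. It was 77.4% at Glis3, in a stretch of only 62 bases. The median in the 250 bases upstream over all promoters was 52.4%.

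GLIS3 sites were denser at each of the 5 loci than over the genome. The density was 7.62 sites per 100 kb at Hhex, 5.88 at Foxe1, 5.45 at Nkx2-1, 3.87 at Pax8 and 3.05 at Glis3, against 0.703 over all chromosomes in the list. Each locus also stood above the density of its own chromosome, which was 1.11 sites per 100 kb on chromosome 19, where Hhex and Glis3 lie, and 0.738 to 0.871 on the other 3 chromosomes. These densities are descriptions of 1 library. The windows were chosen around genes, with earlier results of these data known, whereas the genome average also covers regions with no gene.

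The number of sites was set beside that in all windows of the same length laid end to end along the chromosomes. At least 8 sites were held by 1.06% of 105 kb windows, the number at Hhex. At least 6 sites were held by 2.35% of windows as long as that of Foxe1, 2.71% for Nkx2-1 and 5.01% for Pax8. At least 16 sites were held by 3.94% of 525 kb windows, the number at Glis3. Of the windows with at least 1 site, the shares were 3.54% for Hhex, 7.94% for Foxe1, 8.81% for Nkx2-1, 13.4% for Pax8 and 6.46% for Glis3. The loci were thus among the richer windows of the list, but between 198 and 851 windows of each length held as many sites or more.

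**Figure D1:**
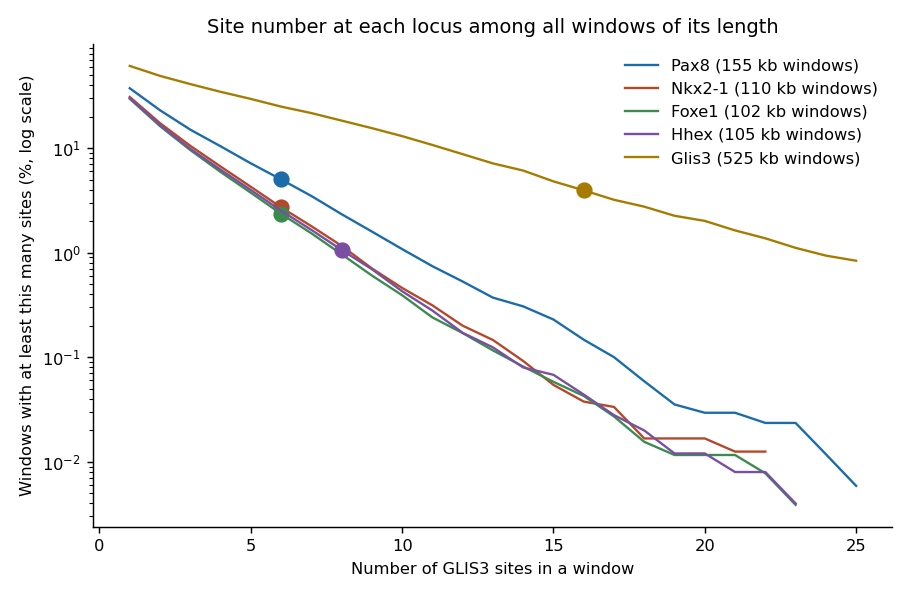
Share of all windows of a locus's length (%, log scale) that held at least a given number of GLIS3 sites (x axis), 1 line per window length, with a point at the number found at the locus. Hhex has the lowest share, 1.06% at 8 sites, and Pax8 the highest, 5.01% at 6 sites.

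Weaker sites were then left out. Of the 42 sites, 16 (38.1%) held at least 15 tags, against 39.9% of all sites. With sites of at least 15 tags alone, Pax8 and Foxe1 held 3 each, Nkx2-1 and Hhex held 2 each and Glis3 held 6. As many were found in 2.85% of windows for Foxe1, 5.15% for Pax8, 6.76% for Hhex, 7.05% for Nkx2-1 and 7.32% for Glis3. The share of windows thus rose from 1.06% to 6.76% at Hhex, and from 2.71% to 7.05% at Nkx2-1 and 3.94% to 7.32% at Glis3, while it moved little at Foxe1, from 2.35%, and at Pax8, from 5.01%.

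Most sites at these genes were of ordinary strength for the library. The 42 sites had a median of 13 tags with quartiles of 11 and 19, and all 18513 sites had a median of 13 with quartiles of 10 and 19. The median fold over the WT library, a ratio scaled by library size in the deposited list, was 14.88 at the 42 sites and 13.74 at all sites. A fold of at least 10 was found at 36 of the 42 sites (85.7%), against 86% of all sites. These 36 are the sites with 0 or 1 WT tag, since 9 tags, the minimum, over 1 WT tag already give a fold of 10.3. This count is thus the same result as the WT background given below. More than 50 tags were held by 2 sites (4.76%), 1 at Glis3 and 1 at Foxe1, against 2.93% of all sites. The median per locus ran from 10 tags at Nkx2-1 to 14 tags at Pax8 and at Foxe1, with 13 at Hhex and 12.5 at Glis3. The Poisson intervals given for single sites are exact, cover counting error only, and do not allow for the minimum of 9 tags that a site needed.

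**Figure D2:**
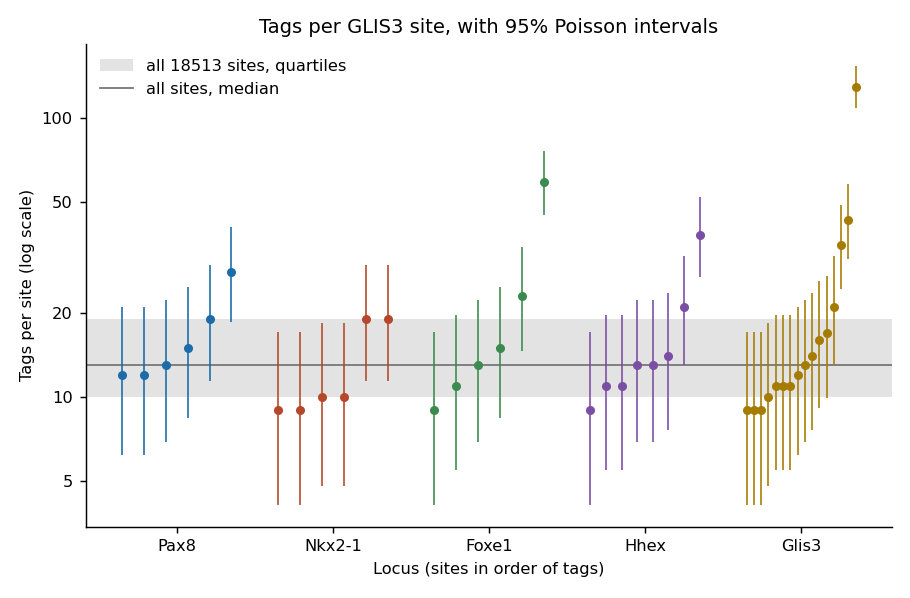
Tags per GLIS3 site (log scale) at the 5 loci, 1 point per site with its 95% Poisson interval, over the quartiles (band) and median (line) of all 18513 sites. Most points lie in or near the band of 10 to 19 tags, and the site with 129 tags at Glis3 and that with 59 tags at Foxe1 stand above the rest of their loci.

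The Glis3 locus held the strongest site of the set. The site at chr19:28608211-28608251 held 129 tags (95% Poisson interval 108 to 153), the most of the 676 sites on chromosome 19, and 16 of all sites, itself among them, held as many or more. Its fold was 147.7, with 0 or 1 tag in the WT library. Taken as 1 WT tag, the fold has an exact 95% interval of 26 to 5880. The neighbouring site at chr19:28608451-28608731, 200 bp away, held 43 tags and a fold of 49.23. This pair lay inside the gene, about 147 kb from the 5′ edge of the gene as the window places it, and the 129 tags were 34.9% of all tags at the locus. The interval of the stronger site did not overlap that of any other site of the set. The fragment length of the library was 204 bp, longer than the gap between these sites, and whether they share tags was not tested.

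The other Glis3 sites were weaker and spread through the gene. A second pair at chr19:28682811-28682851 and chr19:28683091-28683771 held 16 and 35 tags, and the latter, 680 bp wide, was the widest of the 42 sites. A site at chr19:28578511-28578711 held 21 tags. The remaining 11 sites held 9 to 17 tags, of which 3 held 9, the minimum of the list. Strong and minimal sites were thus found in the same gene, and the median of 12.5 tags does not show the 129 tags of the strongest site.

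All 16 Glis3 sites lay inside the gene as the window places it, and 0 lay in the 50 kb on either side. The gene is long, at 421415 bp on GRCm38 beside 425 kb between the flanks of the window. Of the 16 sites, 12 lay on the 5′ side of the middle of the window and 4 on the 3′ side, with Glis3 read from right to left. The longest run, in which each gap is at most 10 kb, had 4 sites from chr19:28735491 to chr19:28752511, with 12, 11, 9 and 17 tags in order of position. The last 2 of these lay about 2.73 and 2.52 kb inside the 5′ edge. The widest gap without a site was 99.5 kb, between chr19:28478991 and chr19:28578511.

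The Glis3 sites also held part of the WT background of the set. WT tags came out whole, within 2%, at all 42 sites. The sites at chr19:28735491-28735551 and chr19:28752251-28752291 had 3 WT tags each, with 12 and 9 tags in the Glis3-EGFP library and folds of 4.58 and 3.43. The site at chr19:28694531-28694571 had 2 WT tags with 11 tags and a fold of 6.3. The exact 95% interval of the fold was 0.857 to 19.7 at the second of these sites, so it reached 1.

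At Hhex, the sites lay on both sides of the space that the window leaves for the gene. This space is 5 kb, shorter than the 5891 bp of the gene on GRCm38, so whether the sites closest to its 3′ edge lie within the gene cannot be told. The strongest, at chr19:37515851-37515891, held 38 tags (95% Poisson interval 26.9 to 52.2) and a fold of 43.51, and was 0.87 kb beyond the 3′ edge of the gene as the window places it. The site next to it, at chr19:37515431-37515611, held 21 tags and a fold of 24.04. On the upstream side, the sites at chr19:37507611-37507751 and chr19:37508411-37508451 held 11 and 9 tags, about 2.32 and 1.57 kb before the 5′ edge. These 4 sites formed a run over 8.28 kb around the gene. Further downstream, sites of 14, 11 and 13 tags formed a second run over 9.72 kb from chr19:37532291 to chr19:37542011, and a site of 13 tags lay 48.22 kb beyond the 3′ edge. In all, 6 of the 8 sites were on the downstream side of this space and 2 on the upstream side, and none had 2 or more WT tags. Of the 2 pairs closest to the gene, the downstream pair held 38 and 21 tags and the upstream pair 11 and 9 tags. The interval of 38 tags did not overlap that of 11 tags, which was 5.49 to 19.7. By contrast, the interval of 21 tags, 13 to 32.1, overlapped those of both upstream sites. On GRCm38 Kif11 lies within 50 kb of Hhex on the upstream side, so the upstream sites cannot be given to 1 gene from their position.

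At Foxe1, the strongest site was far from the gene. It lay at chr4:46389931-46389991, 31.96 kb beyond the 3′ edge, and held 59 tags (95% Poisson interval 44.9 to 76.1) with a fold of 67.55. Taken as 1 WT tag, this fold has an interval of 11.7 to 2710. It was 1 of 357 sites in the list (1.93%) with as many tags or more, and its 59 tags were 45.4% of all tags at the locus. The nearest other site was 33.6 kb away. On GRCm38 the next protein-coding gene on that side is Trmo, a tRNA methyltransferase gene, and Hemgn also lies within 50 kb of Foxe1, so the site cannot be given to 1 gene from its position. The other sites of the locus held 9 to 23 tags. A pair at chr4:46334131-46334331 and chr4:46334511-46334571, about 22 kb upstream of the gene, held 23 and 15 tags. A site at chr4:46356291-46356331 with 13 tags lay 0.31 kb inside the 5′ edge of this gene of 2131 bp. Sites at chr4:46312331-46312451 and chr4:46317231-46317271, further upstream, held 9 and 11 tags. With a site of 25 tags that begins at chr4:46304911, just outside the window, they formed the longest run, 3 sites over 12.4 kb. On GRCm38 Gm12447, listed as protein-coding, lies within 50 kb of Foxe1 on the upstream side, so the upstream sites cannot be given to 1 gene from their position. All 6 sites of the window had 0 or 1 WT tag.

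At Pax8, the strongest site lay at the 5′ end. The site at chr2:24331131-24331171 held 28 tags (95% Poisson interval 18.6 to 40.5) and a fold of 32.06, and its midpoint lay 0.15 kb upstream of the 5′ edge of the gene as the window places it, 54.1 kb from the next site on the gene side. At the other end, a site at chr2:24276931-24276991 with 12 tags was the 1 site inside the gene. Pairs lay about 12 kb beyond either end. The downstream pair, at chr2:24263371-24263571 and chr2:24263831-24263871, held 13 and 19 tags. The upstream pair, at chr2:24342911-24343311 and chr2:24343491-24343531, held 15 and 12 tags, and the second of these had 3 WT tags and a fold of 4.58. The 6 sites ran from 12 to 28 tags, and the interval of 12 tags was 6.2 to 21. On GRCm38 Psd4 lies within 50 kb of Pax8 on the downstream side, so the pair there cannot be given to 1 gene from its position.

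Nkx2-1 had the lowest median of tags, 10, and the lowest maximum, 19, of the 5 loci in the full list. Among sites that the caller gave a p-value of 0.001 or less, its median was 14.5 tags, above those of Hhex, Foxe1 and Glis3, so the order of the medians depends on that threshold. Its strongest sites, at chr12:57615831-57615991 and chr12:57620251-57620531, held 19 tags each (95% Poisson interval 11.4 to 29.7) and a fold of 21.75. They belonged to a run of 4 sites over 4.7 kb, about 10 to 14 kb beyond the 3′ edge of the gene as the window places it. The other members of this run, at chr12:57616431-57616471 and chr12:57619991-57620031, held 9 tags each. The latter had 5 WT tags, the most of the 42 sites, and a fold of 2.06 whose interval of 0.62 to 7.83 reached 1. The site at chr12:57636931-57636991 was the 1 site between the flanks, with 10 tags, 2 WT tags and a fold of 5.72. A site at chr12:57588091-57588411 with 10 tags lay 41.75 kb beyond the 3′ edge. No site lay on the upstream side, where 0 of the 6 fell. The space between the flanks is 10 kb, wider than the 4974 bp of the gene on GRCm38, so the edges are less exact here than at Pax8, with 55 kb beside 55049 bp. By strength, 59 tags at Foxe1 and 129 at Glis3 stood clear of the 19 tags at Nkx2-1, whereas the intervals of 28 tags at Pax8 and 38 at Hhex overlapped that of 19 tags.

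**Figure D3:**
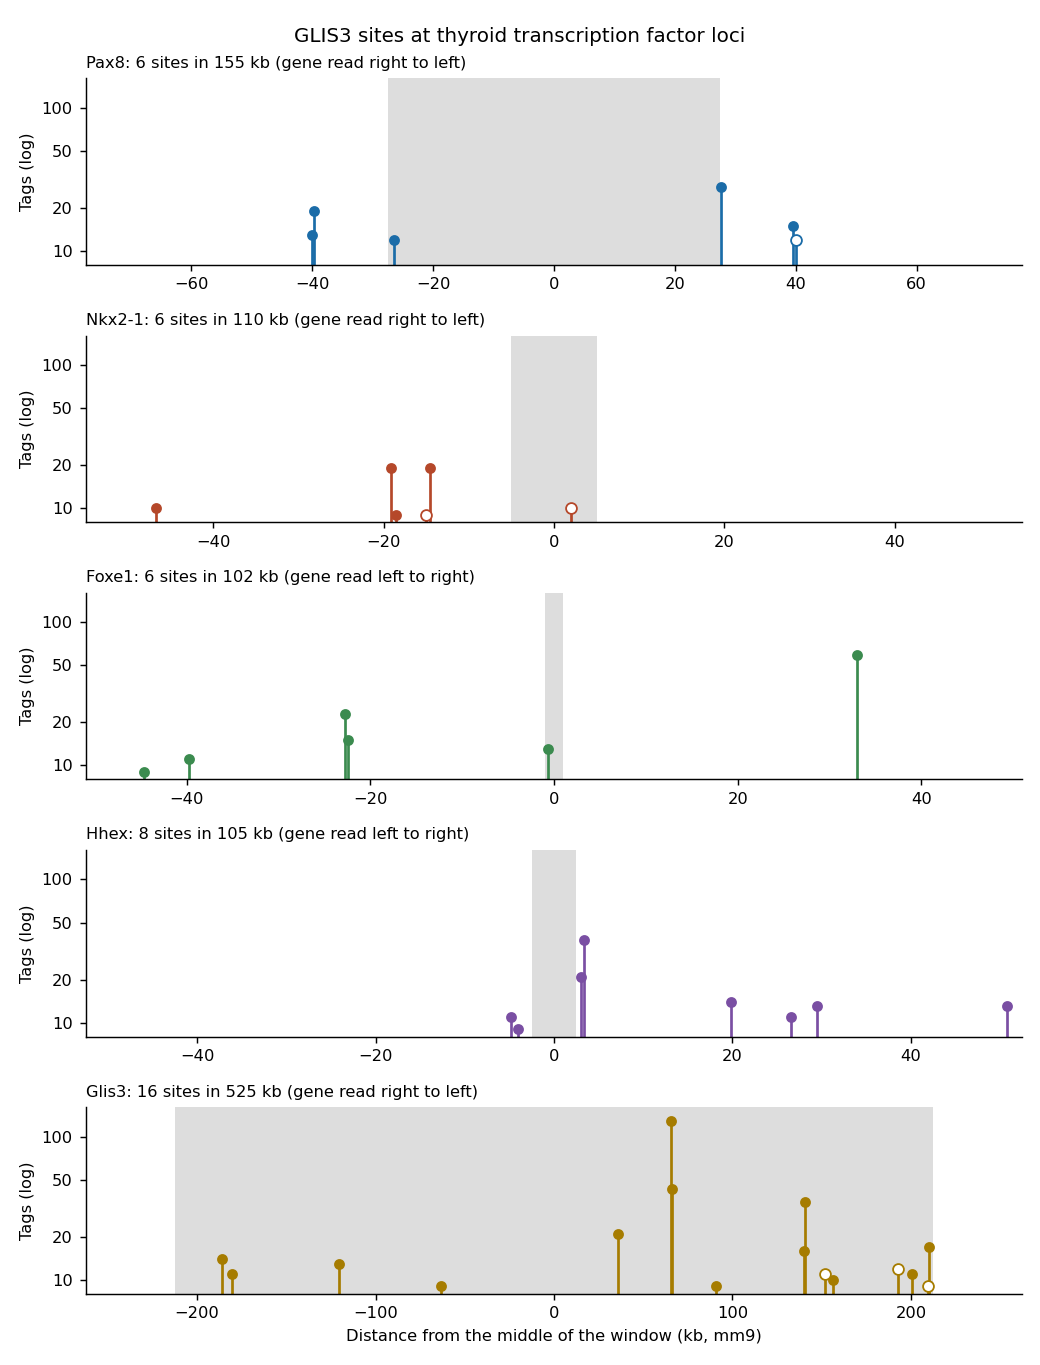
GLIS3 sites in the 5 windows, by distance of the midpoint from the middle of the window (kb, mm9) and tags (log scale), 1 line per site. The grey block is the space of the gene, 50 kb from each end of the window, and open points are the 6 sites with 2 or more WT tags; the 16 Glis3 sites fall within the block and the 8 Hhex sites outside its block.

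Close pairs of sites were found at each of the 5 loci. Of the 42 sites, 20 (47.6%) had a neighbour within 1 kb, against 25.7% of all sites, and 31 (73.8%) had a neighbour within 10 kb, against 55.5%. The 20 sites formed 10 pairs with gaps of 160 to 660 bp. In each pair the tags of the stronger site were 1.22 to 3 times those of the weaker. At least 1 site of the pair was wider than 100 bp in 9 of the 10 pairs. The share over all close pairs in the list was not computed, so this count has no value to stand beside. Counted singly, 15 of the 42 sites (35.7%) and 32.4% of all sites were that wide. Of the 42 sites, 8 (19%) had a gap to the nearest other site that was shorter than the fragment length of 204 bp. The share over all sites was not computed, so whether such gaps are usual in the list cannot be told. Whether a pair was 1 bound region that was called as several sites was not tested.

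**Figure D4:**
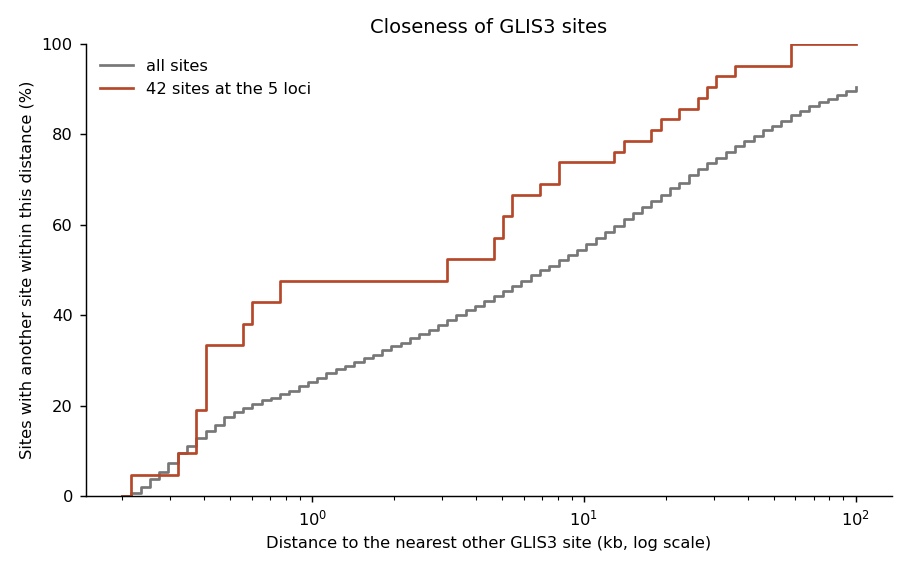
Share of sites (%) with another GLIS3 site within a given distance between midpoints (kb, log scale), for the 42 sites at the 5 loci and for all sites. The line of the 42 sites stands at 47.6% at 1 kb and 73.8% at 10 kb, where all sites stand at 25.7% and 55.5%.

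Sites at these genes stood in runs of up to 4. With runs set at gaps of at most 10 kb, 11 of the 42 sites (26.2%) stood alone, against 44.3% of all sites. Runs of 2 held 14 sites (33.3%), against 23.3% of all sites, and runs of 3 or 4 held 17 (40.5%), against 20.1%. Runs of 5 to 9 held 0 of the 42 sites and hold 11.2% of all sites. Sites of a run are not independent, and the 42 sites stood in 23 runs or single sites, so little can be read from a count of 0. Runs of 10 or more also held 0 of the 42 and hold 1.1% of all sites. With gaps of at most 20 kb, the longest run grew to 11 sites at Foxe1, sites upstream of the window included, and to 7 at Hhex. The density of a window raises the closeness of its sites, so these shares and the densities above are not separate findings.

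The WT library showed background at a few sites. Of the 42 sites, 6 (14.3%) had 2 or more WT tags, against 18.4% of the 17804 sites where WT tags could be recovered. They were 3 at Glis3, 2 at Nkx2-1 and 1 at Pax8, with 0 at Foxe1 and Hhex. The 36 others had 0 or 1 WT tag, which the list does not tell apart, so their folds may be lower bounds. None of the 6 was the strongest site of its locus, and they held 9 to 12 tags.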

How the data were processed

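The labels give 10 libraries, of which the Glis3-EGFP and WT GFP ChIP libraries have site values here. The authors mapped reads to mm9 with Bowtie, per the submitters' notes (no version is given in the sources used here). Sites were called by the authors in SISSRs 1.4 (p-value 0.05, E-value 10, window 20 bp, fragment length 204 bp, 1 tag per position). The methods of the study describe another call (mm10, HOMER, input chromatin). The deposited count is the tags per site (at least 9), the deposited fold is the scaled ratio to WT tags (at least 2, no WT tag counted as 1), and the deposited p-value is the caller's. The Glis3-EGFP library had 4516562 selected tags of 5336607 in all, and the total given for the WT control was 5171171 tags. A site of 9 tags has a Poisson interval of 4.12 to 17.1, which rests on the count alone.

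WT tags were recovered from tags, fold and library sizes (whole within 2%). Poisson and fold intervals are exact (95%). Windows were tiled from the start of each chromosome to its last site. Distances within 1 or 10 kb are between midpoints, and runs use gaps between site ends. Gene lengths, strands and neighbours came from RefSeq and GENCODE M21 on GRCm38, and no coordinate was converted. Gene edges in mm9 are those of the windows, less 50 kb, and are approximate. The loci, windows and motifs were chosen with earlier results of these data known. By the rule for named sites, each locus was given with its 5 strongest sites (all where it had 6 or fewer), the ends of its longest run, sites with 2 or more WT tags and the site nearest the middle. Hhex is given in full beyond this rule. Scripts were tested on simulated lists. Input libraries and the 6 RNA libraries were not analysed here. Analyses ran in Python 3.11.15 with pandas 2.3.3, NumPy 2.4.6 and SciPy 1.17.1, and plots were drawn in Matplotlib 3.10.9.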

Additional observations from a re-analysis of the deposited data

How the results depend on the processing

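Of 137 values under other settings, 108 stayed close to the reported value (counts and densities within 1.5 times, medians within the Poisson interval of a single site with that count, which is wide, and shares within their binomial interval). Among sites with a caller's p-value of 0.001 or less, the median at Nkx2-1 moved from 10 to 14.5 tags and from a fold of 10.9 to 16.6, which counts as close by this measure. All 19 medians of tags and all 15 of fold counted as close. The folds without scaling differ only by a constant factor and could not leave so wide an interval. By contrast, 13 of 40 site numbers and 11 of 40 densities moved. With sites of at least 15 tags, the number fell to 3 at Pax8 (1.94 per 100 kb), 2 at Nkx2-1 (1.82), 3 at Foxe1 (2.94), 2 at Hhex (1.9) and 6 at Glis3 (1.14), against 0.281 such sites per 100 kb over the genome. With 50 kb taken off each end, fewer sites were left by construction, 1 at Pax8 (1.82 per 100 kb), 1 at Nkx2-1 (10), 1 at Foxe1 (50) and 0 at Hhex (0), and Hhex had no median there. With 25 kb taken off, Foxe1 held 3 sites and Nkx2-1 had 8.33 per 100 kb. With 50 kb added, an alternative chosen after seeing the data, Pax8 held 10 sites, Foxe1 13 and Hhex 13, and Nkx2-1 had 2.86 per 100 kb. With run gaps of at most 20 kb, Foxe1 had 1 run, of 11 sites, and the longest run at Hhex had 7. With 5 kb, the longest run was 2 at Hhex and 2 at Glis3. No paired analysis was possible because each ChIP group had 1 library and the RNA libraries, whose labels share replicate numbers, were not analysed here. Depth limits the weak sites most, since 19 of the 42 (45.2%) held 9 to 12 tags. Of all sites in the list, 51.5% held 13 tags or more, so weak sites were not particular to these loci. Gene edges rest on rounded windows.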

Other observations

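Sites just outside the windows, in the next 50 kb on each side, were also counted. They numbered 7 on the upstream side of Foxe1, and 0 on its downstream side, beyond the site of 59 tags. The most tags on that upstream side were 25, at chr4:46281211-46281251 and also at the site that begins at chr4:46304911. The latter stands in a run with 2 sites of the window. At Hhex, 5 lay on the downstream side, the strongest with 44 tags at chr19:37581071-37581271, and 0 on the upstream side. At Pax8, 4 lay on the upstream side, the strongest with 17 tags at chr2:24410131-24410191, and 0 on the downstream side. None lay beside the windows of Nkx2-1 and Glis3. These counts were made after the values in the windows were seen, and whether these sites belong to the 5 genes or to others nearby was not tested.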
